A study of Macaca fascicularis with 2 samples.

Results

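Insulin-like growth factors (IGFs) are small secreted proteins that act on cartilage and disc cells through a receptor tyrosine kinase encoded by *IGF1R*. In tissue fluid they are held by a family of IGF binding proteins (IGFBPs), which can keep the ligand from the receptor or store it in the matrix, and proteases release the ligand by cutting the binding proteins. In cartilage the axis is known for driving proteoglycan synthesis and growth. The transcripts of 10 genes were examined here, chosen by name, namely the ligands *IGF1* and *IGF2*, the receptor *IGF1R* and the binding proteins *IGFBP1* to *IGFBP7*. All 10 were found among the 21371 genes listed in the deposited matrix.

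The cells came from articular cartilage (AC) and nucleus pulposus (NP) of male wild-type cynomolgus monkeys, 3 years old and untreated as far as the labels say. They were pooled into 1 library and sequenced by TAS-seq, a method in which beads with barcodes capture the RNA of each cell before amplification. The pool held AC and NP of 1 monkey and AC of another, whereas the cells carried 4 tags, A951 to A954, and no source read here pairs a tag with a tissue. A tag is therefore given only by its number. With 1 library there were no replicates, so no statistical test was made, and the spread between animals was not measured.

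After the limits on quality, 5653 of 5674 cells with a single tag were used. Notochordal cells (NCs), the large vacuolated cells that the NP inherits from the embryonic notochord, were taken as cells with 5 or more reads of *KRT19*, a keratin, and 5 or more reads of *TBXT*, the notochordal transcription factor brachyury. This gave 310 NCs and 5343 other cells. The NCs lay almost entirely under A952 (236 cells, 21.0% of that tag) and A951 (67 cells, 6.73%), with 5 under A953 and 2 under A954, so the last 2 tags gave no readable NC level. The median depth was 186370 reads and 4061 genes in NCs and 199072 reads and 3819 genes in other cells.

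NCs and other cells, as divided by this rule and not by any label, were checked against marker genes. NCs had higher levels than other cells of *CDH2* and *NCAM1*, adhesion molecules of notochord and nerve (log2 ratios 6.68 and 4.33), and of the ligand *SHH* (6.86). *FOXA2*, a transcription factor of the notochord, was at 0.908 reads per 1000000 reads (rpm) in NCs and 5.46 rpm in other cells, opposite to its place on the list, and *KRT8*, *KRT18* and *CD24* were not among the genes counted. The other cells were rich in *COL2A1*, the main collagen of cartilage, at 20072 rpm against 1269 rpm in NCs. Summed markers of endothelial cells, led by *VWF*, were low in both groups (3.74 rpm in NCs and 3.26 rpm in other cells, none of the 5 genes at 0). Those of immune cells, led by *CD68*, came to 20.6 and 20.1 rpm, although of the 5 genes *LYZ* and *CD3E* were at least 2-fold higher in NCs (log2 ratios 2.87 and 2.06) and *CSF1R* was lower (-1.48). The log2 ratio of *LYZ*, found in 2.26% of NCs, was 4.43 under A951 and 5.14 under A952. Of 5 mural cell markers, *ACTA2* stood at 70.7 rpm in NCs and 6.54 rpm in other cells, and the list summed to 92.9 and 35.4 rpm. *RGS5* was at least 2-fold higher too (log2 ratio 1.49), but *MYH11* was lower (-1.18) and *PDGFRB* was under 2-fold apart (-0.88). *MCAM* was found in only 0.371% of cells. Under A951 alone the mural sum was 30.2 rpm in NCs and 38.9 rpm in other cells, and the log2 ratio of *ACTA2* was -2.38. Of the 8 chondrocyte markers, *ACAN* and *SOX9* were at least 2-fold higher in NCs and 6 were lower. Of the 5 fibroblast markers 4 were lower, and their sum, led by *COL1A2* in NCs and *COL3A1* in other cells, was 1042 and 3769 rpm. Of the 3 osteoblast markers 2 were lower, and their sum was 3.74 and 49.9 rpm. Of the 3 red blood cell markers only *ALAS2* was counted, at 0.0151 and 0.0455 rpm. The part of *ACTA2*-bearing and immune cells in the results below was not tested.

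The level of a gene in a group of cells is its reads added over the cells and divided by all their reads, in rpm. A difference between groups is the log2 ratio of these levels, and 2-fold or more was counted as apart. All intervals are exact 95% intervals, Poisson for a level and Clopper-Pearson for a share of cells. Reads were counted without molecular identifiers, and the intervals cover counting error only. Levels of the 10 genes were not ranked against one another, since no gene lengths were used. Of the 10 genes, 9 had a read in 1% of the cells or more. *IGFBP1*, whose protein is known as a product of liver, had 1 read in NCs and 25 reads in other cells, found in 0.442% of all cells, and was not compared.

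In pooled reads, both ligands and most of the binding proteins were lower in NCs. Of the 9 genes compared, 7 were at least 2-fold lower, as were 13.6% of the 13498 genes that passed the same limit on detection. The other 2, *IGF1R* and *IGFBP7*, were at least 2-fold higher, as were 24.5% of all genes. The median log2 ratio of the 9 genes was -2.48, and that of all genes was 0.26. On the scale of means of log2(rpm + 1), which weights low cells more, 2 of the 9 were lower by 1 or more, *IGF2* and *IGFBP6*, as were 5.27% of all genes, and *IGF1R* and *IGFBP7* were higher by 1 or more, as were 7.9% of all genes. When a difference of 2-fold was asked under both A951 and A952, 2 genes were higher (15.4% of all genes were) and 5 were lower, namely *IGF2* and *IGFBP3* to *IGFBP6* (9.48% of all genes were).

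**Figure D1:**
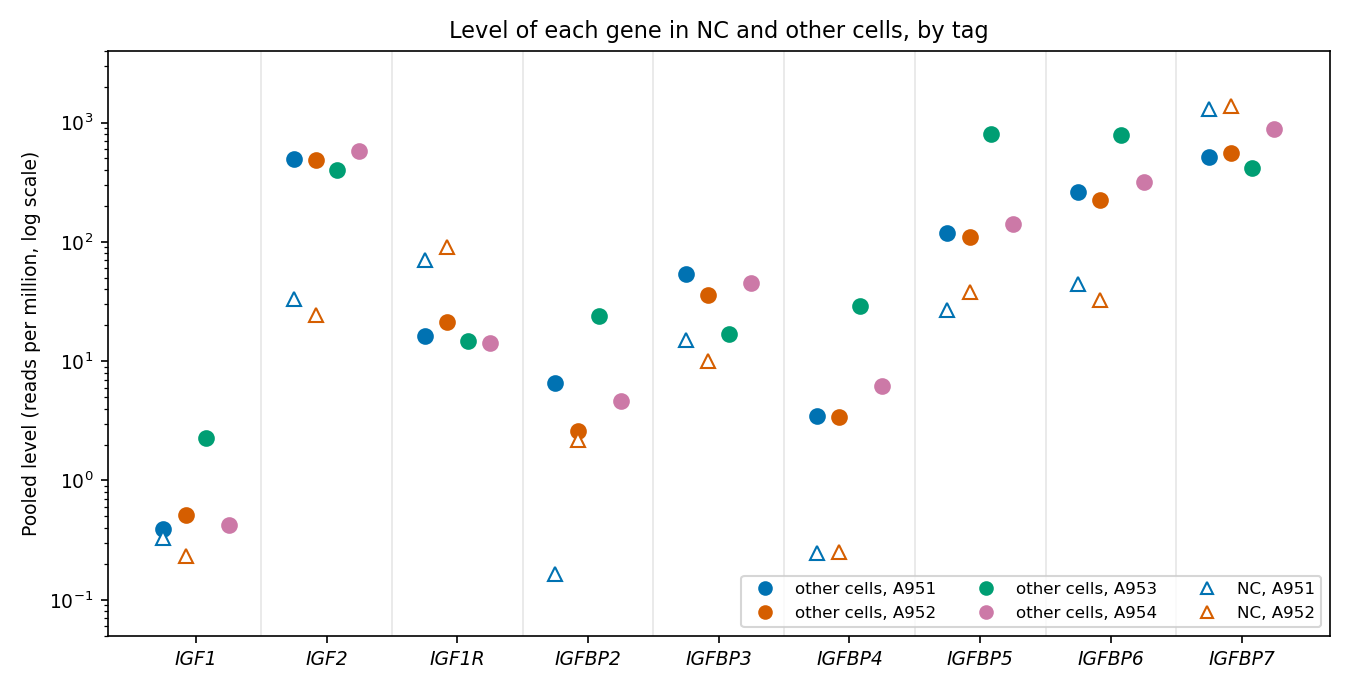
Level of each gene in rpm (vertical log axis) in other cells of each tag (filled circles) and in NCs of A951 and A952 (open triangles). *IGF2* was at 33.4 and 24.3 rpm in NCs and between 402.2 and 575.6 rpm in other cells, whereas *IGF1R* and *IGFBP7* lay above the other cells of every tag in NCs.

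*IGF2*, the ligand best known from fetal growth, showed the clearest contrast. Its level in other cells was 490.9 rpm under A951, 485.8 rpm under A952, 402.2 rpm under A953 and 575.6 rpm under A954. In NCs it was 33.4 rpm (95% interval, 30.3 to 36.8) under A951 and 24.3 rpm (22.9 to 25.6) under A952. The NCs of both tags thus lay below the other cells of all 4 tags, 14.7-fold under A951 and 20.0-fold under A952. The other cells under A951 and A952 did not differ beyond their counting intervals (487.8 to 494.0 and 482.6 to 489.0 rpm).

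The *IGF2* difference was also seen cell by cell. At least 5 reads of *IGF2* were found in 60.9% of other cells (59.6 to 62.2) and in 6.77% of NCs (4.24 to 10.2). A single read says less, because 10.6% of other cells carried a read of *KRT19* and 10.4% a read of *TBXT*, with a median of 1 read in those cells. At 1 read or more, *IGF2* was found in 79.8% of other cells and 50.3% of NCs. After every cell was thinned to 50000 reads, which left out 11 NCs and 196 other cells, these shares were 68.5% and 24.4%.

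Few NCs held most of the *IGF2* reads. The 3 NCs with the most reads had 54.8% of the 2354 reads, and 1 NC under A953 had 651 of them. The NCs also included 7 cells whose *COL2A1* level reached the lower quartile of the other cells. *IGF2* was at 366.2 rpm in these 7 cells and 21.6 rpm in the remaining 303, so that the log2 ratio to other cells fell from -3.82 to -4.55 without them. Among other cells *IGF2* was itself uneven, with a lower quartile of 4.67 rpm, a median of 123.4 rpm and an upper quartile of 663.7 rpm over cells.

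*IGF1*, the ligand induced by growth hormone, was near the limit of detection. In NCs it had 16 reads in 15 cells, 0.242 rpm (0.138 to 0.393), and no NC had 5 reads, where up to 1.18% of NCs is allowed by the interval. In other cells it was at 0.905 rpm, with 5 or more reads in 13 of 5343 cells. The pooled log2 ratio was -1.90, but 64.6% of the *IGF1* reads in other cells came from A953, where 1 cell held 25.5% of that tag's reads. Under A951 the level was 0.328 rpm in NCs (0.0893 to 0.839) and 0.391 rpm in other cells (0.309 to 0.488), and the intervals overlapped. Under A952 it was 0.234 rpm (0.121 to 0.408) and 0.510 rpm (0.411 to 0.625), just apart, from 12 and 92 reads. These counts are too small to size a difference in *IGF1*.

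*IGF1R*, the receptor of both ligands, went the other way. Its level in NCs was 70.5 rpm (65.8 to 75.4) under A951 and 89.9 rpm (87.3 to 92.5) under A952. In other cells it was 16.1, 21.2, 14.8 and 14.2 rpm under A951 to A954, and the 4 values spanned only 1.49-fold. NCs were thus above all other cells, 4.37-fold within A951 and 4.23-fold within A952. At least 5 reads were found in 29.7% of NCs (24.6 to 35.1) and 7.43% of other cells (6.74 to 8.17), and thinning to 50000 reads gave 23.4% and 4.33%.

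The receptor was still uneven within NCs. Its lower quartile was 0 rpm, its median 4.16 rpm and its upper quartile 52.6 rpm over the 310 cells, and 42.9% of NCs had no read. In the 7 NCs with high *COL2A1* it was at 11.9 rpm, against 87.9 rpm in the remaining 303.

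Ligand and receptor reads were set side by side in each cell. Among NCs, 27.7% had 5 or more reads of *IGF1R* but not of *IGF2*, 4.84% of *IGF2* but not of *IGF1R*, and 1.94% (6 cells) of both. Among other cells the order was reversed, with 2.53% for *IGF1R* alone, 56.0% for *IGF2* alone and 4.90% for both. The same order was found within A951 (23.9% and 7.46% in NCs, 2.05% and 54.4% in other cells) and within A952 (28.8% and 3.81% in NCs, 3.60% and 53.0% in other cells). Over the 5343 other cells, which share 1 library and differ in depth, the levels of the pair had a Pearson r of 0.02 on the log2(rpm + 1) scale.

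**Figure D2:**
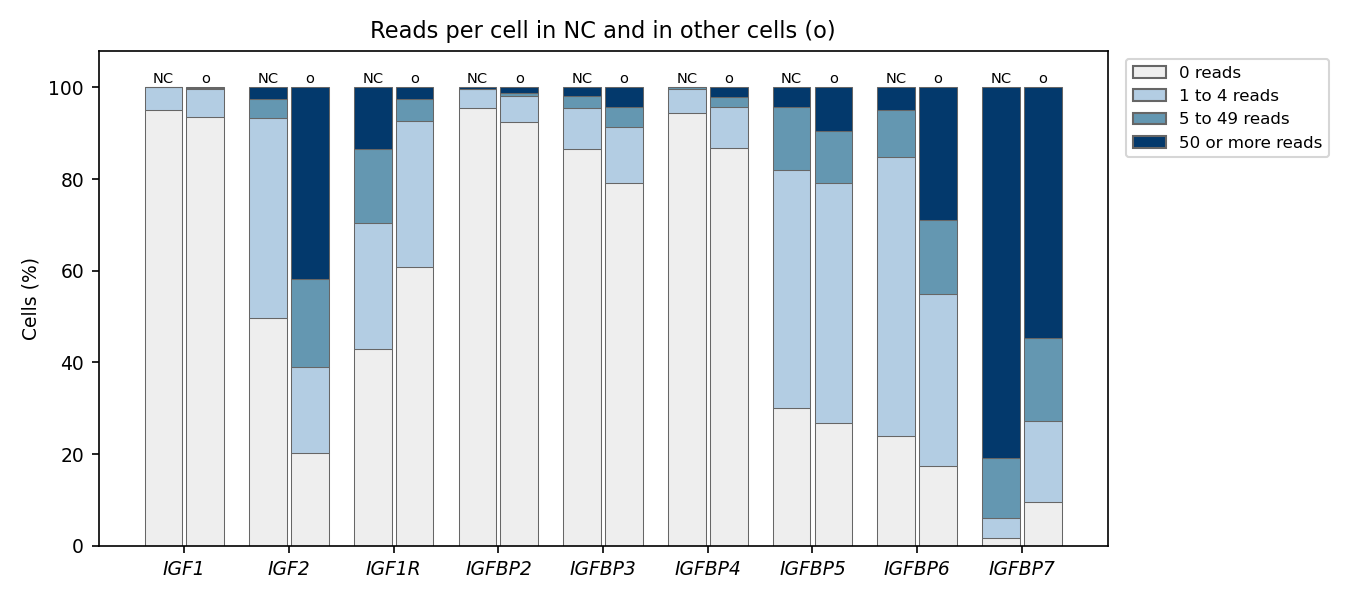
Share of cells (vertical axis, percent) with 0, 1 to 4, 5 to 49 and 50 or more reads of each gene, NCs on the left and other cells on the right of each pair. *IGF2* had 50 or more reads in 41.9% of other cells and 2.58% of NCs, and *IGF1R* in 2.56% and 13.5%.

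The binding proteins were divided. Of the 6 compared, 5 were at least 2-fold lower in NCs in the pooled cells (13.6% of all genes were), and *IGFBP7* was higher (24.5% of all genes were). Of these 5, *IGFBP6* alone was also lower by 1 or more in means of log2(rpm + 1).

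*IGFBP7*, a secreted protein that binds IGFs weakly and is also known as a matrix protein of blood vessels, was the only binding protein found in nearly every NC. Its level was 1310 rpm (1290 to 1330) in NCs of A951 and 1381 rpm (1370 to 1391) in NCs of A952. In other cells it was 513.4, 551.5, 419.7 and 887.6 rpm under A951 to A954. The NCs were 2.55-fold and 2.50-fold above the other cells of their own tags. With all tags pooled, A954 included, the ratio was smaller (2.04-fold), and it fell to a log2 ratio of 0.85 when A952 was left out.

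Both groups had *IGFBP7* in most cells. At least 50 reads were found in 81.0% of NCs and 54.6% of other cells. Over cells, the lower quartile was 512.1 rpm in NCs and 18.9 rpm in other cells, and the upper quartile 2022 and 944.6 rpm. The groups overlapped. On the scale of means of log2(rpm + 1), the difference was 2.37 rather than 1.03. Endothelial markers summed to 3.74 rpm in NCs and 3.26 rpm in other cells. Mural markers summed to 92.9 and 35.4 rpm, of which *ACTA2* made 70.7 and 6.54 rpm. Within A951 the mural sum was 30.2 rpm in NCs and 38.9 rpm in other cells. The part of either list in the difference in *IGFBP7* was not tested.

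*IGFBP6*, which prefers IGF2 over IGF1 as ligand, was lower in NCs. Its level was 44.3 rpm (40.6 to 48.1) in NCs of A951 and 32.5 rpm (31.0 to 34.1) in NCs of A952, against 261.2 and 222.7 rpm in the other cells of the same tags. That made NCs 5.90-fold and 6.84-fold lower. The pooled NC level of 62.3 rpm was raised by the 5 NCs of A953, which held 46.2% of the reads. A read of *IGFBP6* was found in 76.1% of NCs and 82.7% of other cells, but 5 or more in 15.2% and 45.1%.

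*IGFBP3*, the main carrier of IGFs in blood, was at 14.9 rpm (12.8 to 17.2) in NCs of A951 and 10.0 rpm (9.17 to 10.9) in NCs of A952. The other cells of these tags had 53.4 and 35.7 rpm, so NCs were 3.58-fold and 3.57-fold lower. The gene was found in few cells of either group, with 5 or more reads in 4.52% of NCs (2.49 to 7.46) and 8.59% of other cells (7.85 to 9.37). Within A951 the shares were 4.48% (0.933 to 12.5) and 8.84% (7.09 to 10.8). Within A952 they were 4.66% (2.35 to 8.19) and 7.42% (5.79 to 9.35), so the intervals overlapped in each tag. In NCs of A951, 1 cell held 52.2% of the *IGFBP3* reads.

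*IGFBP4*, an inhibitor of IGF action that the protease PAPPA cuts, was almost without reads in NCs. NCs of A952 had 13 reads, 0.253 rpm (0.135 to 0.433), against 3.40 rpm in other cells of the tag. NCs of A951 had 3 reads, and the ratio of other cells to NCs was 14.1 with a counting interval of 4.84 to 68.6. Few other cells carried these levels, as 9 cells held 87.7% of their reads under A951 and 9 held 81.7% under A952. At least 5 reads were found in 0.970% and 1.35% of the other cells of these tags. No NC of A951 (interval to 5.36%) or A952 (to 1.55%) had 5 reads. The counting interval of the ratio does not cover this unevenness. In NCs of A953, 1 cell held 26 reads, which were 60.5% of all *IGFBP4* reads in NCs.

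*IGFBP5*, a binding protein that attaches to the extracellular matrix, was lower in NCs in pooled reads but not in the typical cell. Its level was 26.9 rpm (24.0 to 30.0) and 38.3 rpm (36.6 to 40.0) in NCs of A951 and A952, against 118.0 and 109.4 rpm in other cells. In contrast, the median over cells was 6.99 rpm in NCs and 7.25 rpm in other cells, and the upper quartiles were 14.8 rpm in each. Within A951 the medians were 6.09 and 6.16 rpm and the upper quartiles 14.7 and 12.1 rpm. Within A952 the medians were 7.30 and 6.10 rpm and the upper quartiles 14.6 and 11.8 rpm. The 1% of other cells with the most *IGFBP5* held 60.5% of its reads, and under A952 a single cell held 50.2%. At least 5 reads were found in 18.1% of NCs (13.9 to 22.8) and 20.8% of other cells (19.7 to 21.9), with overlapping intervals. Within tags the order was the opposite, at 20.9% and 12.7% under A951 and 16.1% and 10.8% under A952, where intervals overlapped too. Under A953, which had 5 NCs, the share of other cells was 31.6%.

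*IGFBP2*, a binding protein of fetal and nervous tissue, rested on few cells throughout. In NCs it had 115 reads, 101 of them in 1 cell of A952. In other cells it was at 9.68 rpm, but 5 or more reads were found in only 1.87% of cells (1.53 to 2.27). Under A952 the log2 ratio of NCs to other cells was -0.23, a difference under 2-fold. Under A951 NCs had 2 reads, and the ratio of other cells to NCs was 40.4 from these 2 reads, with a counting interval of 11.2 to 333.6, and 26.9 with the NC reads set to 3 as in the other ratios.

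**Figure D3:**
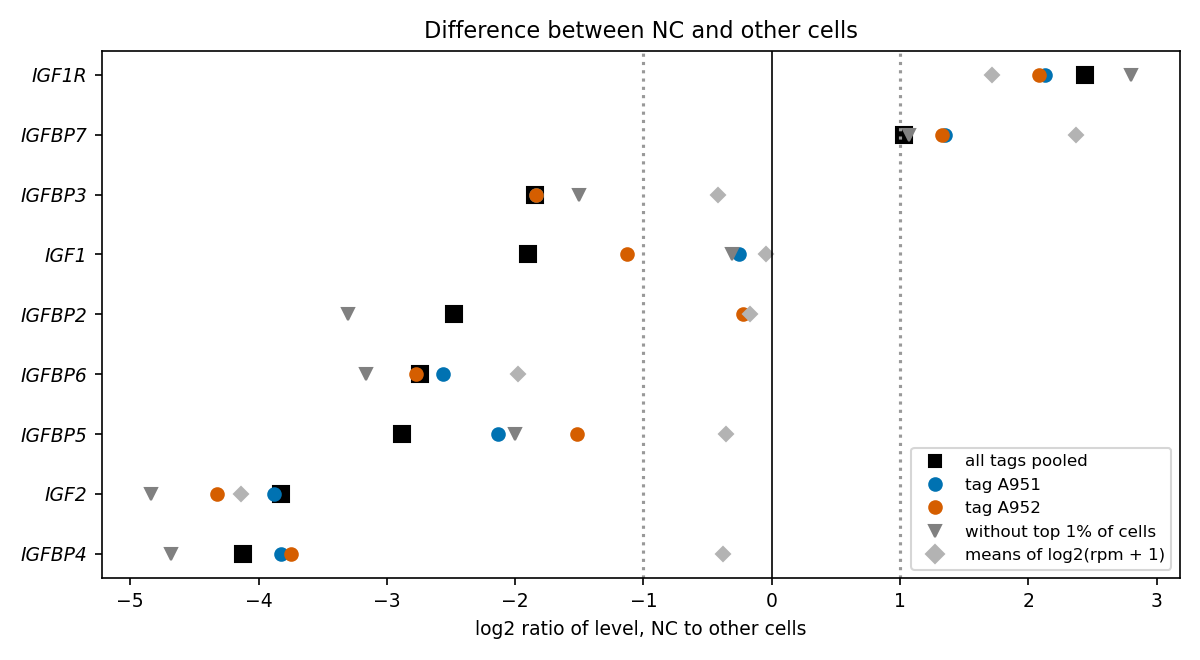
Log2 ratio of the level in NCs to that in other cells (horizontal axis) for all tags pooled (squares), within A951 and A952 (circles), without the 1% of cells with most reads of the gene (triangles), and as the difference of means of log2(rpm + 1) (diamonds). Dotted lines mark 2-fold, and the A951 value of *IGFBP2*, which had 2 reads in NCs, is left out. *IGF2*, *IGFBP6*, *IGF1R* and *IGFBP7* stayed beyond 2-fold at every point, *IGFBP7* only just when pooled (1.03). The diamonds of *IGF1* and *IGFBP2* to *IGFBP5* lay between -0.42 and -0.04.

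Within NCs, the genes were compared between 72 NCs with 5 or more reads of *SHH* and 200 NCs with none. *IGF1R* was at 81.5 and 96.6 rpm, and *IGFBP7* at 1366 and 1309 rpm, in both cases under 2-fold apart. *IGFBP6* was at 72.2 and 61.2 rpm, but within tags it was higher in the NCs with *SHH*, 3.81-fold under A951 (9 cells) and 2.27-fold under A952 (62 cells). The A951 value rested on few cells, since only 3 NCs of that tag had 5 or more reads of *IGFBP6*. A read of it was found there in 55.6% of NCs with *SHH* and 64.7% of those without. *IGF2* was at 27.6 and 43.8 rpm pooled, but under A951 it was 3.08-fold higher with *SHH*. In that tag 1 cell held 50.5% of the *IGF2* reads of NCs. *IGFBP5* was at 41.6 and 38.4 rpm pooled, 2.42-fold lower with *SHH* under A951 and 1.64-fold higher under A952. *IGFBP2* was 21.4-fold higher with *SHH*, but 101 of its 115 reads in NCs lay in 1 cell of A952. *IGFBP4* was 5.72-fold lower pooled, where 1 cell of A953 held 26 of its 43 reads in NCs. It was 1.60-fold lower with *SHH* within A952 and at 0.720 against 0 rpm under A951. Both genes were found in few cells (6.94% and 4.17% of the NCs with *SHH*). *IGFBP3* was at 20.4 rpm in the NCs with *SHH* and 3.71 rpm in those without, but under A951, with 9 and 51 cells, the order was the opposite (0.720 and 9.37 rpm). The *SHH*-bearing NCs were deeper, with a median of 226388 reads against 165790. Over the 310 NCs, the highest Pearson r of any pair among *IGF2*, *IGF1R*, *IGFBP3*, *IGFBP5*, *IGFBP6* and *IGFBP7* was 0.16, on the log2(rpm + 1) scale, for *IGFBP6* and *IGFBP7*.

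The limit of 5 reads bears on these values. The 13 NCs with 5 to 9 reads of the lower of *KRT19* and *TBXT* had 13.6 rpm of *IGF2*, 67.7 rpm of *IGF1R* and 1654 rpm of *IGFBP7*. Just outside, 85 cells with 5 or more reads of 1 gene only had 259.6, 29.9 and 950.7 rpm, between NCs and other cells for each of the 3 genes.

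The other genes of the axis were taken from lists by role. Of 31 genes, 29 were counted (*IRS2* and *FOXO3* were not) and 28 passed the limit on detection, which *IGFALS*, the gene of the acid-labile subunit of the circulating IGF complex, missed (found in 0.601% of cells). In NCs 6 were at least 2-fold higher (24.5% of all genes were), 8 were at least 2-fold lower (13.6% of all genes were) and 14 were neither, with a median log2 ratio of -0.18 against 0.26 over all genes.

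**Figure D4:**
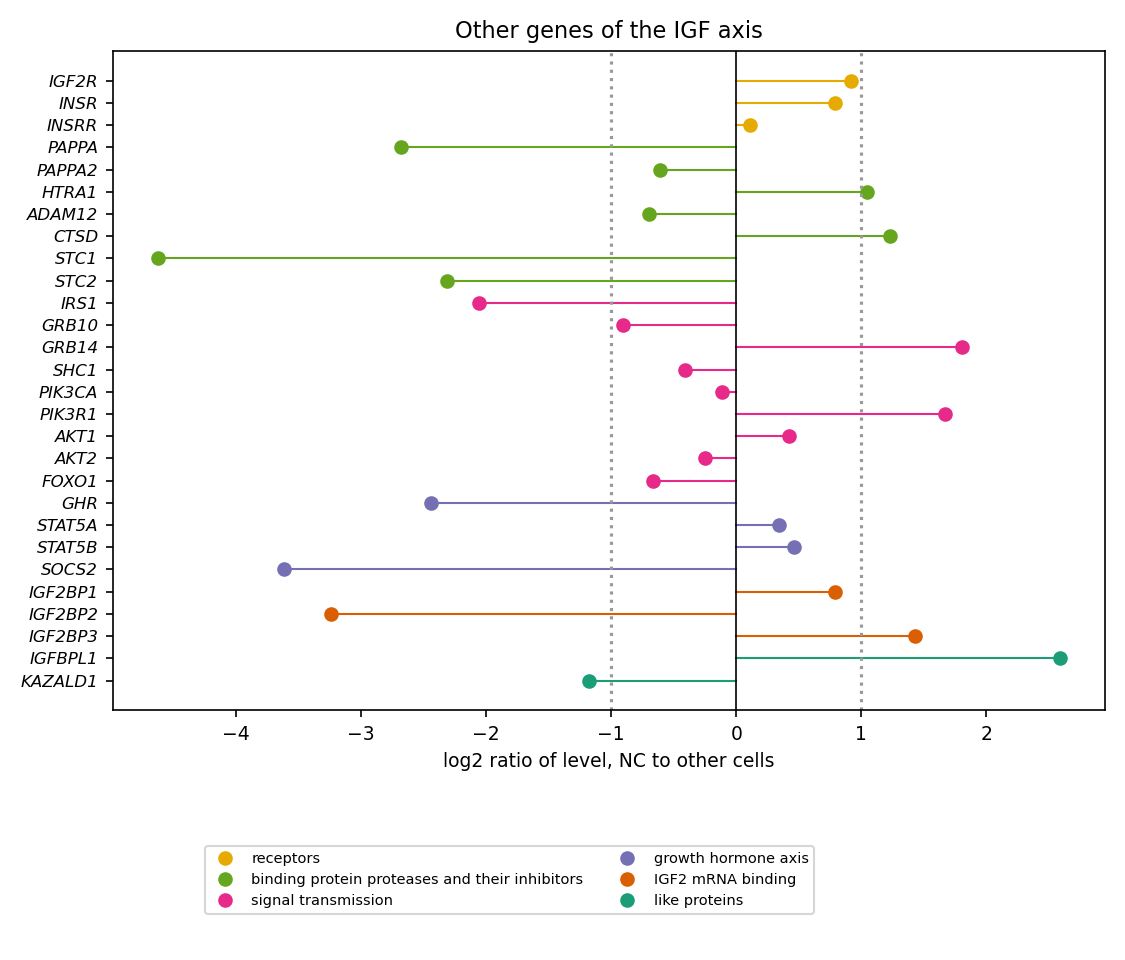
Log2 ratio of the level in NCs to that in other cells (horizontal axis, all tags pooled) for 28 genes of the IGF axis, coloured by role, with dotted lines at 2-fold. *STC1*, *SOCS2* and *IGF2BP2* lay farthest to the left and *IGFBPL1* farthest to the right.

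Among the proteases that cut binding proteins, *PAPPA*, which acts on IGFBP4 and IGFBP5, was at 1.65 rpm in NCs and 10.6 rpm in other cells. Both stanniocalcins, which block PAPPA, were lower in NCs as well, *STC1* at 0.484 against 12.0 rpm and *STC2* at 9.60 against 47.6 rpm. All of these were lower within A951 and A952 alike, though *STC1* was found in only 7.10% of NCs and 9.34% of other cells. In contrast, the serine protease *HTRA1* was at 2360 rpm in NCs and 1141 rpm in other cells, and the lysosomal protease *CTSD* at 672.5 and 285.9 rpm. *HTRA1* was under 2-fold apart within A951 (log2 ratio 0.76). *PAPPA2* and *ADAM12* were under 2-fold apart in the pooled cells, but within A951 their log2 ratios were -2.23 and -1.31.

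The remaining receptors differed less than *IGF1R*. *IGF2R*, which carries IGF2 to the lysosome, was at 499.1 rpm in NCs and 264.7 rpm in other cells (log2 ratio 0.91). The insulin receptor gene *INSR* was at 28.3 and 16.4 rpm (0.79), and 0.08 within A951. *INSRR* was below 0.2 rpm in both groups.

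Of 9 genes that pass the signal on, 6 were under 2-fold apart in the pooled cells, where 38.1% of all genes were 2-fold apart. Of these, *AKT1*, *AKT2*, *PIK3CA* and *SHC1* were under 2-fold apart within A951 and A952 too, whereas *GRB10* and *FOXO1* had log2 ratios of -1.23 and -1.76 within A951. *IRS1*, the adaptor that docks to the activated receptor, was at 5.30 rpm in NCs and 22.0 rpm in other cells, and its log2 ratio was -2.19 within A951 and -2.00 within A952. *PIK3R1*, a regulatory subunit of PI3 kinase, was higher in NCs (122.6 against 38.6 rpm), and so was *GRB14*, an adaptor that dampens receptor signals (8.61 against 2.46 rpm). A read of *GRB14* was found in 28.1% of NCs and 30.0% of other cells, so the share of cells was not higher in NCs.

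In the growth hormone branch, the receptor *GHR* was at 9.25 rpm in NCs and 50.3 rpm in other cells. *SOCS2*, a feedback inhibitor of that receptor, was at 13.7 and 167.6 rpm, whereas *STAT5A* and *STAT5B* were under 2-fold apart in the pooled cells and at log2 ratios of 1.13 and 1.48 within A951. Of the proteins that bind *IGF2* mRNA, *IGF2BP2* was at 5.10 rpm in NCs and 48.4 rpm in other cells. *IGF2BP3*, with 1086 reads in all, was higher in NCs pooled (log2 ratio 1.43) but not by 2-fold within A952 (0.41). *IGF2BP1* was under 2-fold apart (log2 ratio 0.79). *IGFBPL1*, with 160 reads in all, was at 0.575 and 0.0957 rpm, and *KAZALD1*, another relative of the binding proteins, at 21.8 and 49.4 rpm.

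Among the other cells, the tags differed little in *IGF2* and *IGF1R*. From the lowest to the highest tag, *IGF2* spanned 1.43-fold and *IGF1R* 1.49-fold, and *IGF1*, with few reads, 5.74-fold. The binding proteins spanned from 2.11-fold for *IGFBP7* to 9.31-fold for *IGFBP2*. A953 stood apart. Its 1372 other cells had at least 2-fold higher levels than those of the remaining tags of 5 genes (*IGF1*, *IGFBP2*, *IGFBP4*, *IGFBP5* and *IGFBP6*), as did 2.8% of all genes, and a lower level of *IGFBP3*, as did 5.82% of all genes. The value for *IGF1* rested on few cells, since 14 cells held 88.9% of its reads in A953 and its log2 ratio fell from 2.37 to 0.17 without the 1% of cells with the most. In means of log2(rpm + 1), *IGFBP5* and *IGFBP6* of the 5 were higher by 1 or more in A953 (0.193% of all genes were), *IGFBP2* and *IGFBP4* being at 0.36 and 0.63, and of the 9 genes *IGFBP7* alone was lower by 1 or more, at -1.47 (0.356% of all genes were). No gene of the 9 was 2-fold higher in A951, A952 or A954, where 2.3%, 3.67% and 2.05% of all genes were. Set against the remaining tags, A953 included, 3 genes were at least 2-fold lower in A951 (4.35% of all genes), 4 in A952 (4.07%) and 4 in A954 (3.86%), among them *IGFBP4* and *IGFBP5* in each.

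*IGFBP5* was at 804.6 rpm in the other cells of A953 and at 118.0, 109.4 and 139.9 rpm in those of A951, A952 and A954. Cells with 50 or more reads made up 19.0% of A953 and 3.99%, 3.15% and 8.64% of the remaining tags. *IGFBP6* was at 784.9 rpm in A953 against 261.2, 222.7 and 319.4 rpm. Its median over cells was 69.6 rpm in A953 and between 11.4 and 15.3 rpm in the remaining tags, so the typical cell differed too.

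*IGFBP4* was at 29.2 rpm in A953 and at 3.48, 3.40 and 6.17 rpm elsewhere, and the values of A951 and A952 did not differ beyond their counting intervals (3.22 to 3.74 and 3.13 to 3.68 rpm). At least 5 reads were found in 10.8% of the cells of A953 and in 0.970%, 1.35% and 2.65% of the rest. *IGFBP2* was at 24.0 rpm against 6.62, 2.58 and 4.62 rpm, again in few cells (4.88% of A953 with 5 or more reads). *IGFBP3* ran the other way, at 16.8 rpm in A953 and 53.4, 35.7 and 45.5 rpm elsewhere. A953 thus had the highest levels of *IGFBP2*, *IGFBP4*, *IGFBP5* and *IGFBP6* and the lowest of *IGFBP3*.

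The median depth of the other cells was 197492 reads in A953 and 184588, 175762 and 222696 in A951, A952 and A954, so A953 lay within the range. The median share of mitochondrial reads was 1.60% in A953 and 1.36%, 1.42% and 1.46% in the others. Summed chondrocyte markers, led by *COL2A1*, were 35076 rpm in A953 and 47193, 46423 and 36598 rpm in the others. Fibroblast markers, led by *COL3A1*, were 4345 rpm in A953 and 4369, 3822 and 3202 rpm in the others. Immune markers, led by *CD68*, were 27.0 rpm in A953 and 16.0, 17.3 and 18.4 rpm in the others. The part of any of these in the difference was not tested. Whether a tag stands for a tissue or an animal cannot be told apart here.

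The other cells were also divided by *ASPN* and *CILP*, matrix proteins of cartilage, using cells with 5 or more reads of each. The study had picked these genes from clusters of the same cells, next to *IGFBP6*, so the division is not independent evidence for that gene. It took in 885 cells (16.6%), of which A951 and A952 had 6.36% and 5.96% of their other cells and A953 and A954 had 21.4% and 22.3%. These cells were deeper, with a median of 289482 reads against 186912 in the rest. Their summed chondrocyte markers, led by *COL2A1*, were 26507 rpm against 43135 rpm, and their fibroblast markers, led by *COL3A1*, 4176 against 3645 rpm. Osteoblast markers were 68.8 rpm, led by *IBSP*, against 44.1 rpm in the rest, led by *BGLAP*. The part of any of these was not tested.

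In the pooled cells *IGF1*, *IGFBP2*, *IGFBP4* and *IGFBP5*, 4 of the 9 genes, were at least 2-fold higher with *ASPN* and *CILP* (2.47% of all genes were) and *IGFBP3* was at least 2-fold lower (6.64% of all genes were). Without A953, *IGFBP2* and *IGFBP5* were 2-fold higher (3.33% of all genes were) and *IGF1* and *IGFBP3* lower (7.19%). *IGFBP5* was at 711.8 rpm with both genes and 180.9 rpm in the rest, but within A952 it was at 97.7 and 110.6 rpm. *IGFBP6* was at 665.6 and 342.0 rpm, just under 2-fold, and was higher within every tag, by log2 ratios of 1.42, 1.36, 0.89 and 0.49. *IGFBP3* was lower within every tag, by log2 ratios of -1.53, -3.00, -1.67 and -2.28. *IGFBP3* and *IGFBP6* thus held opposite directions in all 4 tags.

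**Figure D5:**
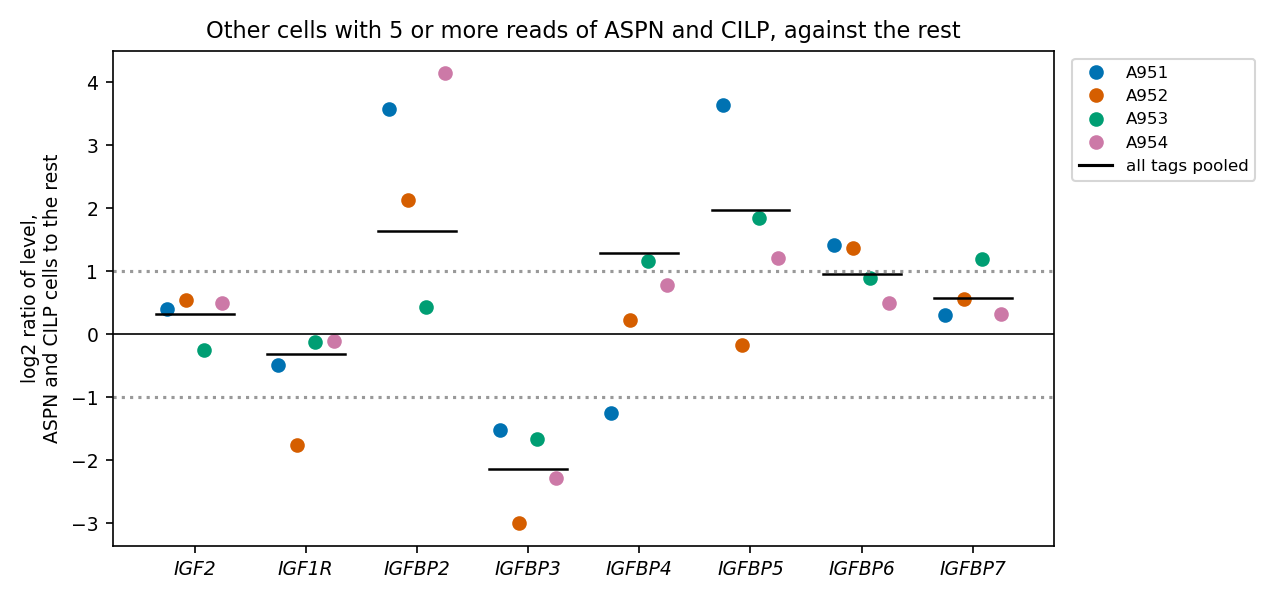
Log2 ratio of the level in other cells with 5 or more reads of both *ASPN* and *CILP* to that in the rest (vertical axis), within each tag (circles) and pooled (bars). *IGFBP3* lay below 0 and *IGFBP2*, *IGFBP6* and *IGFBP7* above 0 in every tag, whereas *IGF2*, *IGFBP4* and *IGFBP5* changed side between tags, and *IGF1* is not drawn.

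*IGF1* was at 1.84 and 0.621 rpm pooled, but it was higher with *ASPN* and *CILP* in A953 alone (log2 ratio 2.32), lower in the other tags, and at 0.02 without the top 1% of cells. *IGFBP4* was at 20.7 and 8.49 rpm pooled, but within A951 at 1.54 and 3.68 rpm. *IGFBP2* was at 20.1 and 6.50 rpm and was higher within every tag, by log2 ratios from 0.43 to 4.14. This rested on few cells with *ASPN* and *CILP*. At least 5 reads of *IGFBP2* were found in 5.08% of 59 such cells in A951 and 1.89% of 53 in A952. The shares were 9.56% of 293 in A953 and 2.92% of 480 in A954. *IGF2* (595.9 and 476.7 rpm), *IGF1R* (13.1 and 16.4 rpm) and *IGFBP7* (882.1 and 592.1 rpm) were under 2-fold apart in the pooled cells, *IGF1R* being lower within every tag (log2 ratio -1.76 in A952) and *IGFBP7* higher (1.19 in A953). Without the cells that bore *ASPN* and *CILP*, the same 5 genes as before were at least 2-fold higher in A953 than in the remaining tags (3.44% of all genes were), with a log2 ratio of 2.32 for *IGFBP5* and 1.33 for *IGFBP6*.

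Further divisions gave less. The 72 other cells with 5 or more reads of *COL10A1*, the collagen of hypertrophic chondrocytes, had no gene 2-fold higher (5.69% of all genes were) and 3 lower (17.3% of all genes were). Among these *IGFBP3* was at 5.76 rpm against 38.5 rpm and *IGFBP5* at 52.6 against 309.6 rpm, but within A952 *IGFBP5* was at 152.6 rpm in the 11 cells with *COL10A1* and 108.8 rpm in the rest. *IGF2* (456.7 and 505.4 rpm) and *IGF1R* (15.3 and 15.6 rpm) were close to the rest in the pooled cells only. Within A951 to A954, the log2 ratio of *IGF2* was -1.73, -1.51, 0.71 and -0.07. That of *IGF1R* was 0.42, -0.78, 0.70 and -1.14. In 2548 cells with 50 or more reads of the growth factor gene *BMP2*, none was 2-fold higher (1.53% of all genes were), and *IGFBP2* and *IGFBP5* were at least 2-fold lower (3.65% of all genes were). Within tags, the log2 ratio of *IGFBP2* was -0.03 in A951, -0.88 in A952, -1.54 in A953 and -1.69 in A954. *IGFBP5* was at 147.4 rpm with *BMP2* and 517.9 rpm without, but 5 or more of its reads were found in 21.1% and 20.5% of the cells. The cells with *BMP2* were deeper, with a median of 241416 reads against 163787 in the rest. Those with *COL10A1* were deeper too (255682 against 198460 reads). As 5328 of the 5343 other cells had 5 or more reads of *PRG4*, the lubricant of the joint surface, that gene gave no readable division.

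Cells with much *IGFBP5* were compared with those with much *IGFBP6*. Of 511 other cells with 50 or more reads of *IGFBP5*, 375 (73.4%) had 50 or more of *IGFBP6*, which were 24.2% of the 1548 cells with that much *IGFBP6*. Of all other cells 29.0% had that much *IGFBP6*. A953 held 218 of the 375 cells, and the share was 83.8% there, 67.7% in A954, 45.9% in A951 (17 of 37 cells) and 14 of 28 cells in A952. Over all other cells of the tag, the shares with that much *IGFBP6* were 43.0% in A953, 29.3% in A954, 17.5% in A951 and 18.6% in A952. Across the 5343 other cells the Pearson r of the pair on the log2(rpm + 1) scale was 0.34, and within tags it was 0.18, 0.21, 0.42 and 0.29 from A951 to A954. In the 310 NCs it was 0.04. These cells share 1 library and both genes were higher in A953, so r is given as a description only.

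Genes with a pattern like that of each member were sought among 9307 genes over the 5343 other cells and named where r was at least 0.3. *CRTAC1*, which encodes cartilage acidic protein, was nearest to *IGFBP6* (0.38) and was the second for *IGFBP5* (0.35), after *MYOC*, the gene of the secreted protein myocilin (0.40). Spearman's rho was 0.34 for *IGFBP6* and *CRTAC1*, but 0.24 for *IGFBP5* and *CRTAC1* and 0.17 for *IGFBP5* and *MYOC*. Within single tags, r was as low as 0.19, 0.16 and 0.22 for these pairs, under the limit. *KCNJ6*, which encodes a potassium channel, was nearest to *IGF2* (0.33), although the value was 0.22 after thinning to 50000 reads. No gene reached 0.3 for *IGF1R*, *IGFBP3*, *IGFBP4* or *IGFBP7*. In the RefSeq annotation of assembly T2T-MFA8v1.1, *IGFBP1* and *IGFBP3* are neighbours, as are *IGFBP2* and *IGFBP5*, and *IGF2* lies next to the insulin gene.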

How the data were processed

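Single cells of pooled AC and NP were measured in 1 TAS-seq library. Per the submitters' processing notes and the paper's methods, the authors aligned reads with HISAT2 2.2.1, assigned them by strand to whole genes, introns included, with featureCounts 2.0.2, allowing reads that map to several places, and summed them per cell with velocyto. The values the authors deposited are raw counts of reads per gene and cell, without molecular identifiers. The genome build was not given in the sources used here. The tag library and a second matrix of 1358 columns, which maps to no labelled sample, were not used.

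Of 5723 cells, 42 called doublets and 7 without a tag were removed; doublets within a tag were not sought. Cells with 200 to 9000 genes and less than 5% of reads on 13 mitochondrial genes were kept, with a median of 198432 reads each. No bead number occurred under more than 1 tag. Levels were computed with Python 3.11.15, numpy 2.4.6 and scipy 1.17.1, and drawn with matplotlib 3.10.9. In a ratio, fewer than 3 reads were set to 3. Genes detected in at least 1% of cells were compared, and 2-fold was counted as apart. In simulated counts of 3000 genes for NCs against other cells, 98.5% of 200 changed genes and 0.500% of unchanged genes were called. All planted changes were well above 2-fold, and no difference between tags was simulated. These shares therefore do not give the accuracy of calls near 2-fold or of genes carried by few cells. All members were named, with the listed genes of the pathway, those at least 2-fold apart first, and for each member detected in 10% of other cells the 3 genes of highest Pearson r, if at least 0.3. A listed gene of the pathway is not reported here. The members and lists were chosen with earlier results of these data known. The alternatives were other limits on cells, other rules for NCs, thinning to 50000 reads, equal weight per cell, means of log2(rpm + 1), removal of the top 1% of cells, each tag left out, and totals without mitochondrial genes. NCs with low *COL2A1*, and all alternatives for A953 and for *ASPN* and *CILP*, were chosen after the data were seen.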

Additional observations from a re-analysis of the deposited data

How the results depend on the processing

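Over 17 settings the 9 genes gave 153 log2 ratios of NCs to other cells. Of these, 152 kept their direction and 136 were also still 2-fold or more apart, and *IGF2* and *IGF1R* were so in all 17. The size for *IGF2* moved, from -3.82 to -1.34 with 1 read of both genes, -2.61 with 5 reads of either, -2.75 without A952 and -4.84 without the top 1% of cells. The exception in direction was *IGF1*, at 1.37 when NCs needed only 1 read of *KRT19* and *TBXT* (408 NCs). Under that rule 4 genes were at least 2-fold lower in NCs instead of 7 (7.56% of all genes were), *IGFBP4* being at -0.66 and *IGFBP6* at -0.70, and *IGFBP7* was at 0.61. With means of log2(rpm + 1) 2 were lower (*IGF2* and *IGFBP6*). With 5 or more reads of either gene (395 NCs), 1 was higher instead of 2, *IGFBP7* being at 0.94, and *IGFBP5* was at -0.81 (22.3% of all genes were higher and 11.5% lower). With each tag left out in turn, 1 to 2 genes were higher (24.6% to 25.3% of all genes were) and 6 to 7 lower (13.9% to 17.8%), *IGFBP7* being at 0.98, 0.85 and 0.88 without A951, A952 and A953. In A953, 2 genes instead of 5 were at least 2-fold higher with means of log2(rpm + 1), namely *IGFBP5* and *IGFBP6* (0.193% of all genes were). With each tag left out, 2 to 5 genes were higher with *ASPN* and *CILP* (2.57% to 3.33% of all genes were), the 2 without A953. The cause of these moves was not tested. The share of all genes 2-fold apart was 38.1% at the main limit on detection, 34.3% with no limit beyond 1 read and 33.3% for genes in at least 10% of cells. No paired analysis was possible because there is 1 library and no result comes from a test. Reads of *IGF1*, *IGFBP1* and *IGFBP2* in NCs were too few for their differences to be sized, those of *IGFBP4* gave a wide interval within A951, and the NCs of A953 and A954 too few to be read.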
